A study of Homo sapiens with 42 samples.

Results

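COL1A1, COL1A2, COL3A1, FN1 and SPARC, 5 genes of the collagen-rich extracellular matrix, were followed through MOLM-13 cells treated with quizartinib, everolimus or both drugs in 2 media. The members were the rows of the count table that carry these 5 gene names, and all 5 were found among 58884 gene rows. COL1A1 was singled out by its difference between quizartinib and vehicle in RPMI, and the other 4 were added as matrix genes that stromal cells make in quantity. The question was whether their RNA follows the drug or the medium. RNA brought in from stromal cells would follow the medium, and so would a leukemia cell transcript that responds to it. These data cannot tell those 2 apart.

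MOLM-13 is a line of acute myeloid leukemia cells whose growth depends on FLT3-ITD, the receptor kinase FLT3 with a tandem duplication inside the protein. All groups were cultures of this line held under treatment for 12 hours. In RPMI, a standard culture medium, there were 3 conditions, namely vehicle, quizartinib (an inhibitor of FLT3, 3 nM) and quizartinib with everolimus (combo). In hBMSC-CM, which is RPMI mixed with medium taken from the human stromal line HS-5, there were 4, namely vehicle, quizartinib, everolimus (an inhibitor of mTORC1, 10 nM) and combo. RPMI with everolimus alone is not analysed here. No stromal cells were cultured with the leukemia cells, which received only the medium of HS-5. Each of the 7 conditions had 3 cultures, and from each of the 21 cultures both input RNA and RNA of the heavy polysome fraction (messages loaded with several ribosomes) were sequenced as poly(A) libraries. The study describes its replicates as biological, and the labels say nothing further on how the cultures were kept apart.

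Type I collagen, the main fibre of bone and skin, is a heterotrimer in which COL1A1 supplies a pair of alpha 1 chains and COL1A2 the alpha 2 chain. COL3A1 encodes type III collagen, which forms fibres together with type I in soft tissues. FN1 encodes fibronectin, a glycoprotein that cells assemble into fibrils and grip through integrins. SPARC, or osteonectin, is a secreted protein that binds collagen and calcium. In bone marrow these genes are hallmarks of mesenchymal stromal cells and osteoblasts, and fibroblasts express them together at high levels, whereas blood cells are not a main source of fibrillar collagen.

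Total counts were 19.4 to 38.8 M per library with a median of 30.2 M. Levels are given as CPM, counts relative to the library total scaled by TMM factors, so a level of 3 counts, the limit that a count of 0 allows, was 0.0754 to 0.149 CPM depending on the library. These limits cover counting error only. Genes with a mean of at least 1 count and 1 CPM over the 42 libraries were tested, and 12939 genes passed. All 12 of the myeloid markers, among them CD33, SPI1, CEBPA and MPO, passed this filter. Of 24 stromal fibroblast markers, 4 held no count in any library. The 5 with at most 3 counts in any library, named by their counts, were PRRX1, CDH11, LUM, POSTN and LOX. Only KRT18, TPM2, ACTA2 and TAGLN of that list passed the filter, and the other 20 markers summed to 0.101 to 1.16 CPM in the 21 input libraries. Of the osteoblast markers only RUNX2, a transcription factor of osteoblast fate, passed the filter, and no erythroid or megakaryocyte marker did. RUNX2 also rose with quizartinib, and its values stand beside those of COL1A1 below.

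On these markers 2 libraries stood apart. In the heavy polysome libraries of hBMSC-CM everolimus replicates 2 and 3, the 20 less abundant stromal markers summed to 14.8 and 34.1 CPM, against 0.797 CPM in replicate 1 and 0.101 to 2.52 CPM in the other libraries. DKK1, a secreted WNT antagonist, had 133 and 219 counts in these libraries and none in the other 40. NNMT, an enzyme abundant in fibroblasts, had 11 and 74 counts, again with none elsewhere. The matrix genes did not stand out there. COL1A1 had 46 and 22 counts (1.37 and 0.708 CPM, against 1.49 CPM in replicate 1), COL1A2 and COL3A1 had none, SPARC had 4 and 0, and FN1 had 31 and 25. COL1A1 results and list counts that rest on these libraries are given with and without them. Without them, only replicate 1 of hBMSC-CM everolimus remains in polysome RNA.

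COL1A1 was the only member that passed the filter, and its libraries with quizartinib raised its mean. Without quizartinib it averaged 0.946 CPM in RPMI and 1.14 CPM in hBMSC-CM input, and 0.378 and 0.689 CPM in polysome RNA. With quizartinib these means were 18.6, 11.8, 23.1 and 11.6 CPM. The COL1A1 gene lies on chromosome 17 from 50184101 to 50201632 on the minus strand (ENSG00000108821, GRCh38). It held 13170 counts in all, with counts in 40 of 42 libraries and a highest count of 1304. Its exons share 59 bases with a lncRNA on the opposite strand (AC015909.1), and whether counting used strand is not given in the sources used here. That lncRNA had counts in only 2 libraries, 6 in RPMI quizartinib replicate 2 and 3 in hBMSC-CM combo replicate 2, both of them input. FN1 (ENSG00000115414, chromosome 2, 215360440 to 215436073, minus strand) held 657 counts in 36 libraries. COL1A2 (ENSG00000164692, chromosome 7, 94394895 to 94431227, plus strand) held 415 counts in 24 libraries. SPARC (ENSG00000113140, chromosome 5, 151661096 to 151686975, minus strand) held 189 counts in 25 libraries, and its exons share 191 bases with the opposite-strand gene CLMAT3. COL3A1 (ENSG00000168542, chromosome 2, 188974373 to 189012746, plus strand) held no count in any of the 42 libraries.

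In input RNA, COL1A1 was low in every culture without quizartinib and high in every culture with it. In RPMI, the level under vehicle was 0.151, 2.35 and 0.337 CPM in replicates 1, 2 and 3. Under quizartinib it was 8.29, 32.9 and 20.3 CPM, and under combo 6.77, 26.7 and 16.8 CPM. These RPMI values chose the gene and are a description. In hBMSC-CM, the level under vehicle was 0.611, 0.732 and 0.550 CPM, and under everolimus 2.00, 1.71 and 1.27 CPM. In the same medium it was 4.04, 17.9 and 13.96 CPM under quizartinib and 3.78, 20.2 and 10.6 CPM under combo. In each medium every library with quizartinib lay above every library without it. In bulk RNA a change in the share of cells that express a gene cannot be told apart from a change in RNA per cell.

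**Figure D1:**
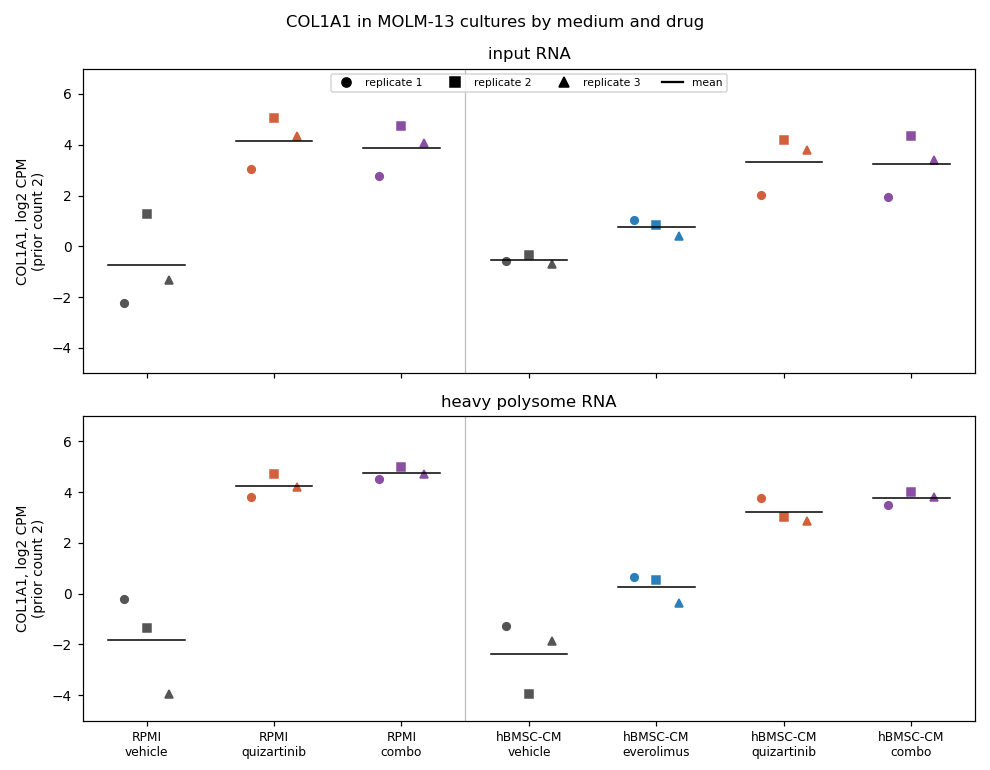
COL1A1 in each library as log2 CPM (prior count 2), by condition, with input RNA in the upper panel and heavy polysome RNA in the lower panel. Symbols mark the replicate number and lines the mean of 3 libraries. All quizartinib and combo libraries sit above all vehicle and everolimus libraries of the same medium and fraction, from 3.78 to 32.9 CPM against 0.151 to 2.35 CPM in input RNA.

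Ordered by mean input level, COL1A1 was highest in RPMI quizartinib (20.5 ± 12.3 CPM, SD, n = 3), followed by RPMI combo (16.8 ± 9.99), hBMSC-CM quizartinib (12.0 ± 7.15) and hBMSC-CM combo (11.5 ± 8.27). Then came hBMSC-CM everolimus (1.66 ± 0.370), RPMI vehicle (0.946 ± 1.22) and hBMSC-CM vehicle (0.631 ± 0.0925). Neighbours within the first 4 overlapped in their values, as did neighbours within the last 3. The step from hBMSC-CM combo to hBMSC-CM everolimus was the one without overlap. Part of the spread within groups went with the replicate number. In each of the 4 input groups with quizartinib the library numbered 2 was highest, the library numbered 3 next and the library numbered 1 lowest, and input counts summed over conditions were 878, 3936 and 2032 for numbers 1, 2 and 3.

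The groups in hBMSC-CM had no part in choosing COL1A1, and there the effect of quizartinib was tested with and without everolimus together. COL1A1 rose with a log2 change of 3.52 (SE 0.51, edgeR adjusted p = 3.45e-06), the 6th highest of 12939 genes, where 27.3% of genes were called and the median change of all genes was 0.02. Since the libraries with quizartinib raised COL1A1 past the filter, its rank among tested genes is a description. With no filter the change was 3.53. The 6 libraries with quizartinib held 3.78 to 20.2 CPM and the 6 without held 0.550 to 2.00 CPM, a ratio of means of 10.3. Taken apart, quizartinib against vehicle gave a log2 change of 4.24 (SE 0.76, edgeR adjusted p = 0.000371, 12.3% of genes called). Combo against vehicle gave 4.19 (SE 0.76, edgeR adjusted p = 7.54e-05, 26.5% of genes called). The ratio to the vehicle culture of the same number was 6.60, 24.5 and 25.4 under quizartinib and 6.18, 27.6 and 19.3 under combo, so that replicate 1 rose least under both.

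Of 5 listed osteoblast markers 4 had a row, IBSP held no count in any library, and ALPL and BGLAP missed the filter. RUNX2, the only osteoblast marker that could be tested, rose as well. Its input level in hBMSC-CM was 13.9 ± 4.63 CPM under vehicle, 15.6 ± 1.37 under everolimus, 22.0 ± 3.82 under quizartinib and 28.7 ± 6.78 under combo (SD, n = 3 each). The quizartinib change was 0.77 in input RNA (SE 0.17, edgeR adjusted p = 0.000970) and 0.89 in polysome RNA (SE 0.18, edgeR adjusted p = 0.000210), and in RPMI combo against vehicle gave 1.62 (SE 0.25, edgeR adjusted p = 3.05e-06). Of all genes 12.4% and 21% rose in the first 2 comparisons, and 37.4% were called in the last. The part of RUNX2 in the COL1A1 result was not tested.

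The effect of everolimus on COL1A1 did not pass the test. In hBMSC-CM input, everolimus with and without quizartinib gave a log2 change of 0.67 (SE 0.49, edgeR adjusted p = 0.643, 2.23% of genes called). Everolimus alone against vehicle gave 1.40 (SE 0.74, edgeR adjusted p = 0.617), where 0.41% of genes were called. The 3 everolimus libraries held 1.27 to 2.00 CPM and the 3 vehicle libraries 0.550 to 0.732 CPM, with a ratio of means of 2.63, and the difference did not pass the test. With no filter on low counts the same difference had an adjusted p of 0.0478.

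Adding everolimus to quizartinib gave a log2 difference of -0.05 (SE 0.63, edgeR adjusted p = 1.00), with 0.24% of genes called, and the sign of this difference turned when single cultures were left out. Adding quizartinib to everolimus gave 2.79 (SE 0.69, edgeR adjusted p = 0.00623, 11.1% of genes called). This last call was lost without hBMSC-CM combo replicate 2 (2.11, adjusted p = 0.0702), without the libraries numbered 2 (2.13, adjusted p = 0.118) and without those numbered 3 (2.74, adjusted p = 0.0820). The interaction, the effect of combo beyond the sum of both drugs, was -1.45 (SE 0.97, unadjusted p = 0.145 in edgeR), and 0 genes were called in it.

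In RPMI, the log2 change under quizartinib against vehicle was 4.43 in input RNA, the 5th highest of 12939 genes, and under combo 4.14. Of all genes, 34.6% and 37.4% were called in these comparisons, from which nothing is read for COL1A1. The ratio to the same-numbered vehicle culture was 54.9, 14.01 and 60.1 under quizartinib. Number 2, with the smallest ratio, had the highest vehicle level, 2.35 CPM.

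The medium was compared at equal drug treatment. The fitted COL1A1 level was lower in hBMSC-CM than in RPMI at each drug state, and under combo by less than the test could tell from the spread. The comparison under combo used cultures that had not chosen the gene. There the log2 difference of hBMSC-CM against RPMI was -0.54 (SE 0.63, edgeR adjusted p = 0.927, 5.36% of genes called), and both groups overlapped. Without drug the fitted difference was -0.59 and under quizartinib -0.78, given without a test because the RPMI groups chose COL1A1. Of all genes 1.51% and 8.16% were called in these comparisons.

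Among cultures with the same number, COL1A1 was lower in hBMSC-CM in 3 of 3 under quizartinib, at 0.487, 0.544 and 0.689 of the RPMI level. Under combo it was again lower in 3 of 3, at 0.558, 0.757 and 0.632 of the RPMI level. Without drug it was lower in 1 of 3. Over all input libraries of the conditions common to both media, COL1A1 held 4205 counts in 9 RPMI libraries and 2460 counts in 9 hBMSC-CM libraries. Of the RPMI counts, 2352 came from the quizartinib libraries that served in choosing the gene. Only the combo cultures of RPMI had no part in that choice, so the other values are a description. How many of all genes were lower in 3 of 3 was not counted.

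**Figure D2:**
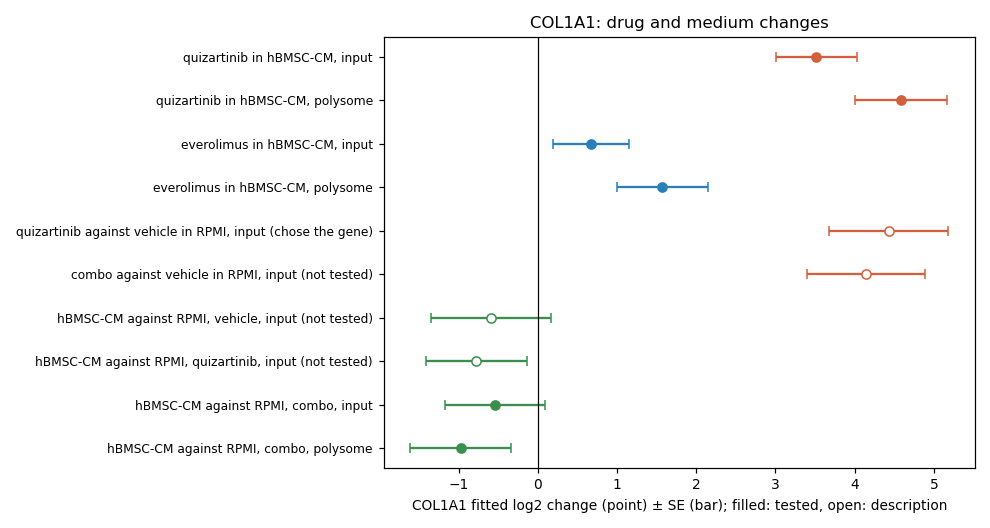
Fitted log2 changes of COL1A1 (points) with their standard errors (bars) on the x axis, for the 10 drug and medium comparisons named on the y axis. Filled points were tested and open points are descriptions. Of those drawn, the 4 changes with quizartinib or combo lie at 3.52 to 4.58, the 2 everolimus changes at 0.67 and 1.57, and the 4 differences of hBMSC-CM against RPMI at -0.97 to -0.54.

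COL1A1 RNA in heavy polysomes showed the same step between cultures with and without quizartinib. In RPMI it measured 0.808, 0.327 and 0 CPM under vehicle, 13.8, 26.1 and 18.3 CPM under quizartinib and 22.6, 31.5 and 26.4 CPM under combo. In hBMSC-CM it measured 0.350, 0 and 0.213 CPM under vehicle and 1.49, 1.37 and 0.708 CPM under everolimus. In that medium quizartinib libraries held 13.4, 8.05 and 7.11 CPM and combo libraries 11.3, 15.99 and 13.9 CPM. As in input RNA, no library with quizartinib overlapped with one without, in either medium.

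In hBMSC-CM, polysome COL1A1 rose with quizartinib by a log2 change of 4.58 (SE 0.58, edgeR adjusted p = 3.36e-07), the 3rd highest of 12939 genes, a rank that is again a description. In this comparison 34% of genes were called and the median of all genes was 0.13. Without the 2 everolimus libraries that held stromal markers the change was 4.41 (edgeR adjusted p = 0.000434). The polysome change minus the input change was 1.06 (SE 0.76, unadjusted p = 0.169 in edgeR), where 0 genes were called, and without those 2 libraries it was 0.89 (SE 0.87, unadjusted p = 0.310). Input and polysome libraries of the same culture were fitted as independent, so the SE and p leave out that pairing. In the RPMI libraries that chose the gene, the polysome log2 change under quizartinib was 5.70.

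Everolimus gave a polysome log2 change of 1.57 over both quizartinib states (SE 0.57, edgeR adjusted p = 0.0942, 6.77% of genes called). Everolimus alone against vehicle gave 2.61 (SE 0.94, edgeR adjusted p = 0.0993, 5.12% of genes called), with 0.708 to 1.49 CPM against 0 to 0.350 CPM. Without the libraries with stromal markers these changes were 1.74 and 2.95, with only replicate 1 left in the hBMSC-CM everolimus polysome group. Neither passed the test with all libraries, although some alternative settings called them.

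The medium difference under combo was larger in polysomes than in input RNA but did not pass the test. The 3 hBMSC-CM libraries, 11.3 to 15.99 CPM, lay below the 3 RPMI libraries, 22.6 to 31.5 CPM, with a log2 difference of -0.97 (SE 0.64, edgeR adjusted p = 0.493, 5.97% of genes called). Under quizartinib, where the RPMI cultures served in choosing the gene, the polysome groups held 7.11 to 13.4 CPM in hBMSC-CM against 13.8 to 26.1 CPM in RPMI. Averaged over the 4 hBMSC-CM conditions, COL1A1 in polysome against input RNA had a log2 difference of -0.57 (SE 0.38, edgeR adjusted p = 0.159), in a comparison where 82% of genes were called. Without the libraries with stromal markers this was -0.49 (adjusted p = 0.302). Here too, input and polysome libraries of the same culture were fitted as independent.

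COL1A2, the partner chain of type I collagen, did not show the step seen in COL1A1. Its counts are given as they stand, since it had at most 67 in any library. In RPMI input libraries they were 20, 39 and 10 under vehicle, 2, 67 and 8 under quizartinib and 7, 30 and 0 under combo. In hBMSC-CM input they were 2, 28 and 0 under vehicle, 4, 2 and 0 under everolimus, 6, 33 and 0 under quizartinib and 0, 15 and 0 under combo. The groups with and without quizartinib overlapped in both media, and the highest counts were in libraries numbered 2 in 6 of 7 conditions. By replicate number, COL1A2 summed to 41, 214 and 18 input counts and to 10, 128 and 4 polysome counts.

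Per kilobase of exon (9.007 kb for COL1A1 and 10.812 kb for COL1A2), the ratio of summed COL1A1 to COL1A2 counts was 3.93 in the 9 input libraries without quizartinib, from 344 and 105 counts. In the 12 input libraries with quizartinib it was 46.5, from 6502 and 168 counts. In polysome RNA it was 6.09 without quizartinib, from 137 and 27 counts, and 64.6 with it, from 6187 and 115 counts. RPMI vehicle replicate 2 held 22 of the 27 COL1A2 counts, and without that library the ratio was 30.7, from 128 and 5 counts. With any other single library left out, the polysome ratio was 4.05 to 7.48 without quizartinib, and with quizartinib it was 56.2 to 98.6, the highest without RPMI combo replicate 2. In input RNA it was 3.17 to 5.004 without and 42.7 to 61.8 with quizartinib when single libraries were left out. By replicate number the polysome ratio was 201, 23.4 and 648, and the input ratio 25.7, 22.1 and 136. All these ratios pool in the RPMI libraries that chose COL1A1 and are a description. In hBMSC-CM alone, COL1A1 and COL1A2 input counts were 246 and 36 without quizartinib and 2395 and 54 with it. The polysome counts there were 111 and 5 without it and 1926 and 18 with it. Across the 21 input libraries the correlation of log2 CPM between both chains was r = 0.115, and that of COL1A1 with FN1 was 0.0491 and with SPARC 0.356. These describe points that share libraries and depth, and for the scarce genes rest on few counts.

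COL1A2, FN1 and SPARC missed the filter and were tested only in a fit of all 33530 genes with a count, without a filter. That fit gave COL1A1 an SE of 0.26 for the quizartinib change in hBMSC-CM input where the filtered fit gave 0.51, so its standard errors and p-values are not on the footing of the filtered fit. For COL1A2 the quizartinib change in hBMSC-CM input did not pass there. COL1A2 in heavy polysomes against input in hBMSC-CM did pass (edgeR adjusted p = 0.00116, 39.1% of genes called), with 5 and 18 polysome counts without and with quizartinib against 36 and 54 input counts. Without hBMSC-CM combo replicate 2 its adjusted p was 1.00. In polysome RNA under quizartinib, COL1A2 had no count in hBMSC-CM and 0, 34 and 2 counts in RPMI (edgeR adjusted p = 0.0166, 3.75% of genes called). Without RPMI quizartinib replicate 2, which held 34 of the 36 counts, its adjusted p was 0.666, and without 1 hBMSC-CM culture at a time it was 0.0638 to 0.101.

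**Figure D3:**
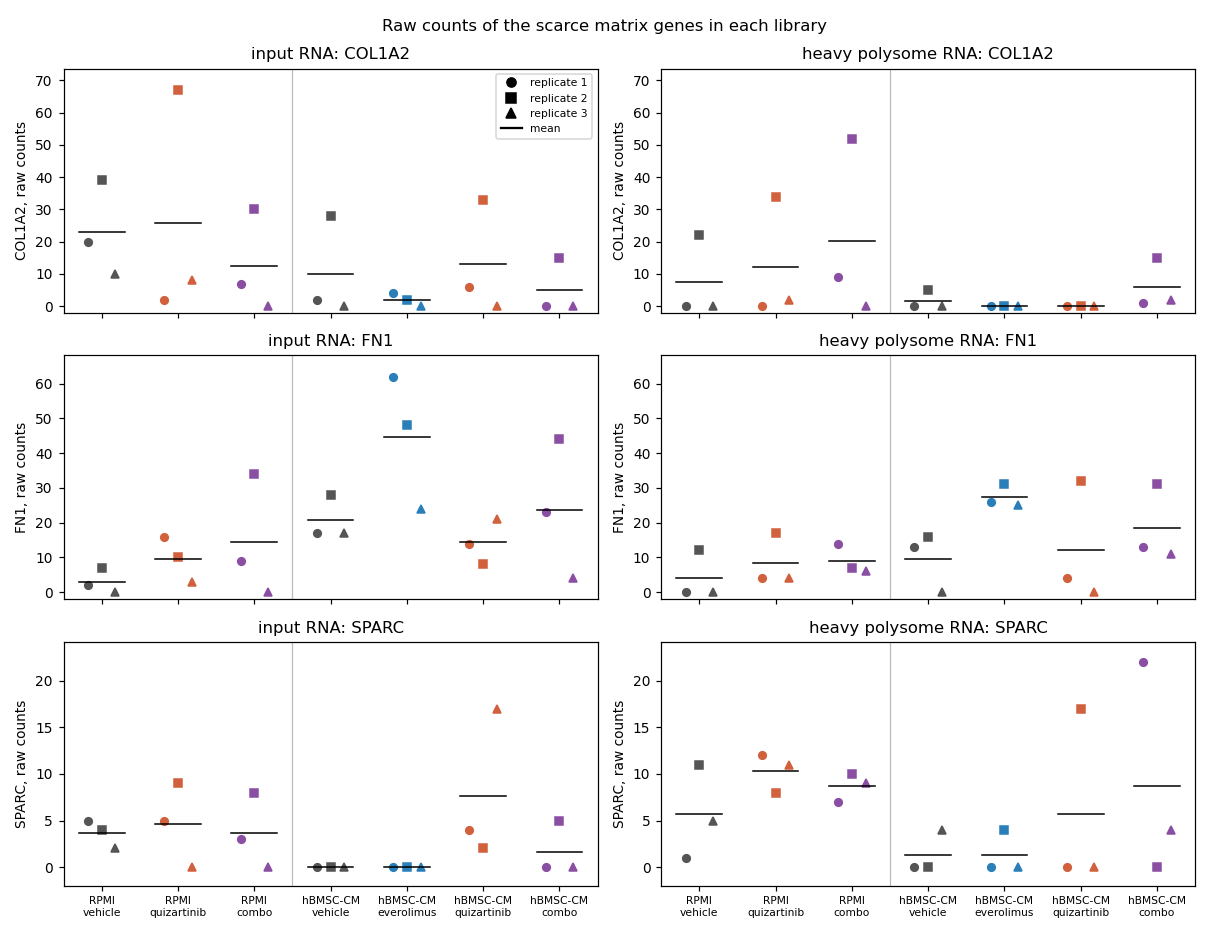
Raw counts (y axis) of COL1A2, FN1 and SPARC in each library by condition, with input RNA on the left and heavy polysome RNA on the right. Symbols mark the replicate number and lines the mean of 3 libraries. COL1A2 is highest in libraries numbered 2, with up to 67 counts, and FN1 input counts are highest in hBMSC-CM everolimus, with 62, 48 and 24.

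FN1 was the member with more counts in hBMSC-CM than in RPMI. Its input counts in RPMI were 2, 7 and 0 under vehicle, 16, 10 and 3 under quizartinib and 9, 34 and 0 under combo. In hBMSC-CM they were 17, 28 and 17 under vehicle, 62, 48 and 24 under everolimus, 14, 8 and 21 under quizartinib and 23, 44 and 4 under combo. Over the conditions common to both media these came to 81 counts in RPMI and 176 in hBMSC-CM, and in polysome RNA to 64 and 120.

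Without drug FN1 in input RNA was at 0.610 ± 0.244 CPM in hBMSC-CM against 0.0836 ± 0.104 CPM in RPMI (SD, n = 3 each). The unfiltered fit gave this difference a log2 value of 2.76 (SE 1.05, unadjusted p = 0.00869, edgeR adjusted p = 0.507), so it did not pass over all genes, of which 0.752% were called. In polysome RNA of the same cultures the groups overlapped, with 0 to 0.722 CPM in hBMSC-CM against 0 to 0.436 CPM in RPMI. Under quizartinib and under combo the groups of both media overlapped. Everolimus in hBMSC-CM held the highest FN1 level of all conditions, 1.22 ± 0.430 CPM in input RNA, but the difference from vehicle did not pass (log2 1.01, edgeR adjusted p = 1.00, 0.286% of genes called). In RPMI, combo against vehicle gave a log2 change of 2.18 (SE 1.05, edgeR adjusted p = 0.185, 13.8% of genes called).

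SPARC was scarce, with at most 22 counts in a library and more than 3 counts in 21 of 42. In RPMI its input counts were 5, 4 and 2 under vehicle, 5, 9 and 0 under quizartinib and 3, 8 and 0 under combo. In hBMSC-CM none of the 6 input libraries of vehicle and everolimus held a count, whereas quizartinib libraries held 4, 2 and 17 and combo libraries 0, 5 and 0. The unfiltered fit called this quizartinib difference (edgeR adjusted p = 0.00918, 9.77% of genes called), but without hBMSC-CM combo replicate 2 its adjusted p was 1.00, and no fold is given against groups at 0.

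In polysome RNA, SPARC counts in RPMI were 1, 11 and 5 under vehicle, 12, 8 and 11 under quizartinib and 7, 10 and 9 under combo. In hBMSC-CM they were 0, 0 and 4 under vehicle, 0, 4 and 0 under everolimus, 0, 17 and 0 under quizartinib and 22, 0 and 4 under combo. All 9 RPMI polysome libraries thus held a count, against 5 of 12 in hBMSC-CM. SPARC in polysomes against input in hBMSC-CM passed in the unfiltered fit (edgeR adjusted p = 0.0112, 39.1% of genes called), from 8 and 43 polysome counts without and with quizartinib against 0 and 28 input counts. It had an adjusted p of 1.00 without quizartinib replicate 2, everolimus replicate 2 or vehicle replicate 3 and of 0.0750 without combo replicate 1.

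Other genes of collagen and matrix biology were read from hand-written lists. Collagen chains need hydroxylases, chaperones and propeptide proteases in the secretory pathway, and 14 of 20 such genes were tested. With quizartinib in hBMSC-CM input, none rose and 3 fell, where 12.4% of all genes rose and 14.8% fell, with a list median of -0.13 against 0.02 for all genes. COLGALT1, which adds galactose to collagen hydroxylysine, fell by 0.91 in log2 units (SE 0.16, edgeR adjusted p = 4.26e-05), and the lysyl hydroxylase PLOD3 fell by 0.87 (SE 0.15, edgeR adjusted p = 2.49e-05). None of the 14 differed between media under combo in either fraction, where 5.36% of all genes were called in input and 5.97% in polysome RNA. In polysome RNA under quizartinib 2 rose and 3 fell, where 21% of all genes rose and 12.9% fell, with a median of 0.10 against 0.13. There ADAMTS2, the procollagen N-proteinase, rose by 1.29 and MIA3, which loads procollagen into transport vesicles, by 0.63, whereas PLOD3 and COLGALT1 fell again. Without the libraries with stromal markers 1 rose and 2 fell, where 11% of all genes rose and 8.32% fell, and MIA3 was no longer called (0.58, edgeR adjusted p = 0.0699). In polysome against input RNA, 12 of the 14 were higher, as were 40% of all genes, with a median of 1.26 against -0.03, while MIA3 was lower, at -1.42, and COL1A1 was not called. The counts were the same without the libraries with stromal markers, with a median of 1.22.

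Of 29 other matrix genes only 8 were tested, and 2 rose with quizartinib in hBMSC-CM input, where 12.4% of all genes rose, with a median of 0.17 against 0.02. THBS1, or thrombospondin-1, rose by 1.94 (SE 0.40, edgeR adjusted p = 0.000472) and NID1, the basement membrane linker nidogen, by 0.60 (SE 0.21, edgeR adjusted p = 0.0324). In polysome RNA 4 of the 8 rose, led by THBS1 at 2.57 and NID1 at 1.20, where 21% of all genes rose, with a median of 0.53 against 0.13. Without the libraries with stromal markers 3 of the 8 rose, where 11% of all genes did.

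Of 12 matrix remodelling genes 9 were tested, and with quizartinib 3 rose and 1 fell in hBMSC-CM input (median 0.19). The shares over all genes were 12.4% and 14.8%, and their median was 0.02. The gelatinase MMP2 rose by 1.26 and the collagen-degrading protease CTSK by 1.22, and MMP9, the other gelatinase, fell by 1.71 on the log2 scale. Of 8 tested matrix receptors 2 rose, CD36, a receptor for thrombospondin and collagen, by 1.74 and LAIR1, an inhibitory collagen receptor of leukocytes, by 0.56 (median 0.15, where 12.4% of all genes rose). Of 15 tested genes of the TGF-beta pathway, which induces collagen genes in fibroblasts, SMAD3 rose by 0.39 and SMAD6 fell by 0.62 (median 0.08), where 12.4% of all genes rose and 14.8% fell. With everolimus in hBMSC-CM input, 1 gene each of the processing, remodelling, receptor and TGF-beta lists was called and none of the other matrix genes, where 2.23% of all genes were called. PPIB, a collagen folding isomerase, fell by 0.72, and TIMP2, an inhibitor of metalloproteinases, CD44, a hyaluronan receptor, and SKIL, a repressor of SMAD signalling, rose by 0.47, 0.56 and 0.90.

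Some genes of these lists, and CCL2 from the separate list of HS-5 secreted factors, had their higher levels in hBMSC-CM at each drug state. THBS1 in input RNA was 1.86 ± 0.709 CPM in hBMSC-CM vehicle against 0.0897 ± 0.0782 CPM in RPMI vehicle. Under quizartinib it was 4.99 ± 1.02 CPM and under combo 9.17 ± 2.95 CPM in hBMSC-CM, with no count in RPMI, which makes it at least 62.5-fold and 102-fold higher against a floor of 3 counts per library. MMP9 was 18.4 ± 11.1 against 1.02 ± 0.976 CPM under vehicle, 8.53 ± 7.86 against 0.0980 ± 0.0193 CPM under quizartinib and 2.79 ± 1.86 against 0.0443 ± 0.0767 CPM under combo. CCL2, a monocyte chemokine that HS-5 and monocytic cells both make, was 1.67 ± 1.21 against 0.167 ± 0.0955 CPM under vehicle, and under combo at least 17.5-fold higher. Under combo all 3 passed the test of hBMSC-CM against RPMI (edgeR adjusted p = 1.50e-08 for THBS1, 0.000975 for MMP9 and 1.96e-05 for CCL2), where 5.36% of all genes were called. Since the hBMSC-CM libraries raised the means of all 3 past the filter, these calls are a description. Of the remodelling list PLAUR and PLAU, the urokinase receptor and urokinase, were also higher in that comparison, by 1.58 and 0.94 on the log2 scale, and of the receptors SDC4, a syndecan, by 1.58. Of the TGF-beta list, SMAD6 was higher by 0.72 and SMAD3 lower, at -0.66.

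**Figure D4:**
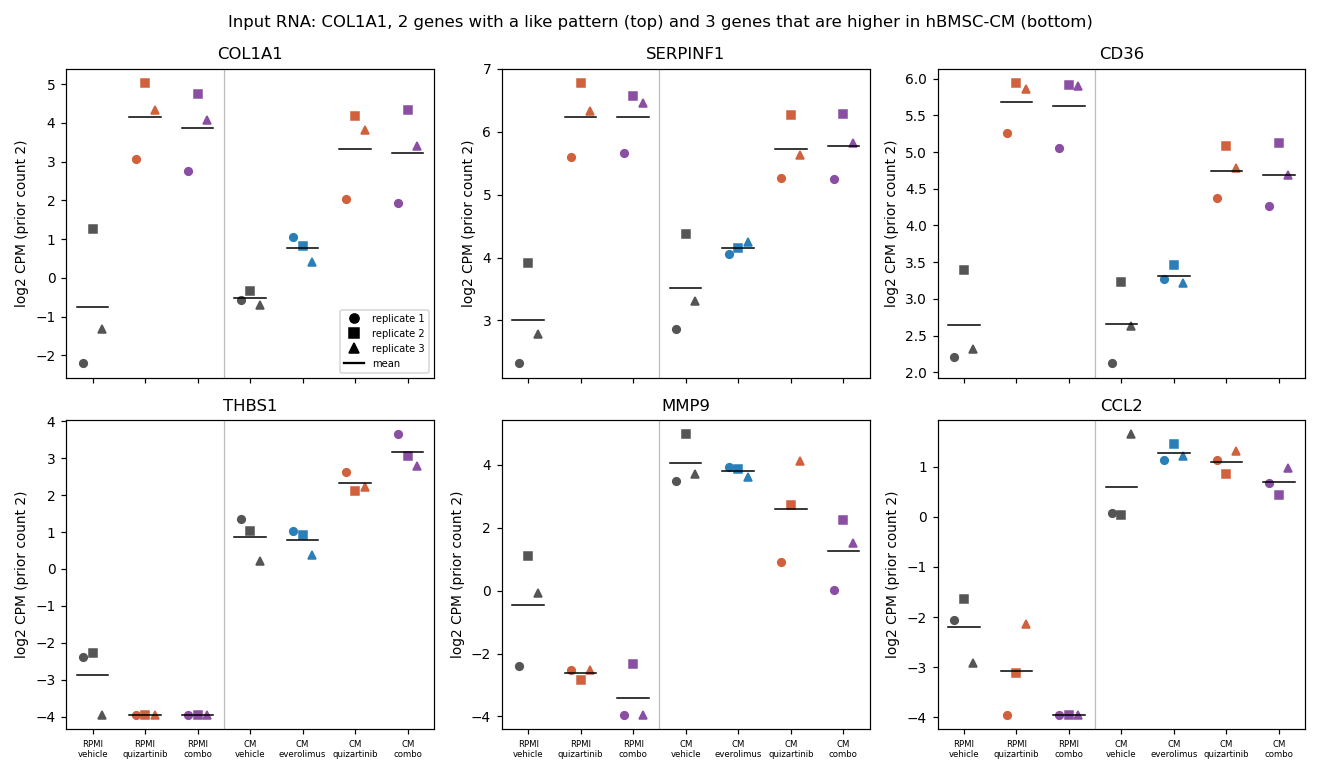
Input RNA of COL1A1, SERPINF1 and CD36 (upper row) and of THBS1, MMP9 and CCL2 (lower row) in each library as log2 CPM (prior count 2), by condition (CM, hBMSC-CM). Symbols mark the replicate number and lines the mean of 3 libraries. The upper genes are higher with quizartinib in both media, and the lower genes are higher in hBMSC-CM at each drug state, THBS1 for example at 9.17 CPM under combo against no count in RPMI.

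Stromal markers were also compared between the media. Of the 4 that could be tested, KRT18, a keratin, was higher in hBMSC-CM under quizartinib in input RNA, at 8.22 ± 2.47 against 4.01 ± 0.513 CPM (log2 1.03, SE 0.33, edgeR adjusted p = 0.0470, 8.16% of genes called). Without drug its groups were at 9.72 ± 4.45 and 9.59 ± 3.17 CPM. None of the 4 was called without drug in input RNA or under combo in either fraction. Of all genes 1.51% were called without drug, and 5.36% and 5.97% under combo in input and polysome RNA. The other 20 markers summed to 0.498 to 0.754 CPM in hBMSC-CM combo input and 0.126 to 1.16 CPM in RPMI combo input. With quizartinib in hBMSC-CM input TAGLN, an actin-binding protein of smooth muscle and fibroblasts, rose by 1.04 (SE 0.22, edgeR adjusted p = 0.000430), the only one of the 4 to do so, where 12.4% of all genes rose. Of 9 listed HS-5 secreted factors, IL6, CSF3 and CSF2, cytokines for which HS-5 is known, held no count in any library. Of the 2 tested factors, 1 was called higher in hBMSC-CM input without drug, under quizartinib and under combo. Under combo it was CCL2, for which the limit set by the filter is given above. Of all genes, 1.51%, 8.16% and 5.36% were called there. The 9 summed to 3.78 to 8.28 CPM in hBMSC-CM vehicle input against 1.28 to 2.06 CPM in RPMI vehicle. Under combo these sums were 3.63 to 8.65 against 1.38 to 4.75 CPM.

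The genes whose input levels ran most like those of COL1A1 were chosen by the correlation of log2 CPM over the 21 input libraries. They were SERPINF1 (r = 0.972), CD36 (0.964), WDR81 (0.961), ARHGAP18 (0.958) and CYTH4 (0.958), and over the 21 polysome libraries their r was 0.849 to 0.881. SERPINF1 encodes a secreted serpin that binds collagen, WDR81 an endosomal trafficking protein and CYTH4 an exchange factor for ARF GTPases. SERPINF1 and WDR81 are neighbours on chromosome 17 (1762029 to 1777565 and 1716523 to 1738599, both plus strand), far from COL1A1 on the other arm.

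SERPINF1 input levels were 8.89 ± 5.33 CPM in RPMI vehicle and 79.7 ± 30.7 CPM in RPMI quizartinib, and 12.6 ± 7.19 and 55.1 ± 20.04 CPM in the same conditions of hBMSC-CM. CD36 measured 6.64 ± 3.29 and 52.5 ± 12.5 CPM in the RPMI pair and 6.57 ± 2.53 and 27.2 ± 6.54 CPM in the hBMSC-CM pair. The quizartinib change in hBMSC-CM input was 1.91 for SERPINF1, 1.74 for CD36, 0.63 for WDR81, 0.63 for ARHGAP18 and 0.82 for CYTH4, each smaller than the 3.52 of COL1A1.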

How the data were processed

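Poly(A) libraries were read as pairs on a NovaSeq6000, trimmed with BBDuk, and aligned and counted by the authors with STAR 2.6.0a on the Ensembl hg38 annotation. The deposited values are raw counts per gene for 42 libraries, without normalization. Whether counting used strand is not given in the sources used here. Rows that share a gene name were summed (57353 names), and 0 value columns were left unused. Without a spike-in, each value is a share of its library, and messages with short poly(A) tails are under-read.

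The study's filter on low counts (means under 1 count or under 1 CPM removed) kept 12939 genes with 99.8% of counts. Totals were 19.4 to 38.8 M. All 42 libraries entered 1 quasi-likelihood fit in edgeR 4.0.16 (R 4.3.3, robust, TMM, 14 group means, no block), and Benjamini-Hochberg adjusted p under 0.05 over all tested genes was called. Input and polysome libraries of the same culture entered as independent, and no setting had a term for the culture. The study used limma. The fit was tested on simulated counts drawn independently for each library, with changes set only in genes of higher counts. Pairing of cultures and shared deviation by replicate number were not simulated. Log2 CPM used a prior count of 2. Positions and exon lengths are from GENCODE 44 (GRCh38, the same assembly in another annotation release than the authors').

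The members and gene lists were chosen with earlier results of these data known. COL1A1 was chosen from quizartinib against vehicle in RPMI, so it has no test there, nor against RPMI vehicle or RPMI quizartinib libraries. Named were the members, the 5 genes most correlated with COL1A1 in input RNA and, per list, comparison and direction, at most 2 called genes. The exception is the remodelling list in hBMSC-CM against RPMI under combo, where all 3 called genes were named. From the stromal and secreted lists, genes with at most 3 counts and genes that marked the 2 libraries set apart were named after their values were seen.

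Same-numbered libraries deviated together in the medium comparisons (correlation of deviations from group means 0.331 to 0.511 over the 3 pairs under combo in input RNA and 0.310 to 0.674 in polysome RNA), whereas over the 18 pairs of the 4 hBMSC-CM input groups it ran from -0.0535 to 0.658. Alternatives were limma voom (limma 3.58.1), DESeq2 1.42.0, RLE factors, library size only, no filter, a mean of at least 10 CPM, only the compared libraries, the replicate number as a block, and each culture left out. Chosen after seeing the data were leaving out a replicate number in every condition, leaving out the 2 libraries with stromal markers (gene list counts included), leaving out each library from the ratio of both collagen chains, and leaving out cultures or adding a block in the unfiltered fit.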

Additional observations from a re-analysis of the deposited data

How the results depend on the processing

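The quizartinib rise of COL1A1 in hBMSC-CM kept its direction and call under all 24 alternatives in input RNA (log2 change 3.03 to 4.002, highest adjusted p 0.00256) and all 25 in polysome RNA (4.30 to 4.97, highest adjusted p 0.000674). The everolimus change in input RNA (0.33 to 0.90) and the medium difference under combo, in input (-1.22 to -0.03) and polysome RNA (-1.09 to -0.78), passed the test under none. Polysome against input RNA of COL1A1 in hBMSC-CM became a call with library size only (-1.01, adjusted p = 0.0172), with no filter (-0.52, adjusted p = 0.0180) and, chosen after seeing the data, without replicate 1 of every condition (-1.03, adjusted p = 0.0204), and the cause was not tested. The block on the replicate number changed no call of these results: it gave 3.36 and 4.63 for quizartinib in input and polysome RNA, 0.67 for everolimus, -0.58 and -0.97 for the medium under combo and -0.49 for polysome against input. With it, genes called rose from 772 to 1216 for the medium under combo in polysome RNA and from 195 to 373 for the medium without drug. Given its own term in each fraction, the block called everolimus in polysome RNA (adjusted p = 0.0103). The difference of combo from quizartinib turned positive without hBMSC-CM quizartinib replicates 2 (0.37) or 3 (0.07), without combo replicates 1 (0.37) or 3 (0.0086) and without the libraries numbered 3 (0.16), in a range of -0.73 to 0.37. Everolimus against vehicle in polysome RNA was called by DESeq2 (adjusted p = 0.0374), without a filter (1.12e-05) and with the block in each fraction (0.0150). The main fit, with 3 libraries a group and no term for the replicate number, gave the medium difference under combo an SE of 0.63. A difference in COL1A1 of the size fitted was not detectable in that fit, and the counts of COL1A2, FN1 and SPARC set the same limit for every drug.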
